A study of Mus musculus with 9 samples.

Results

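The immunoglobulin constant regions and the J chain were examined in RNA precipitated with phosphorylated UPF1 (p-UPF1) from activated mouse B cells. The 8 genes were Ighm, Ighd, Ighg1, Ighe, Igkc, Iglc1, Iglc2 and Jchain, chosen by name, and each was found by its NCBI Gene number among the 27179 genes of the count table. All 8 passed the filter on low counts, which 13129 genes passed. Ighd here is the constant gene of the delta chain and not a diversity segment.

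RNA immunoprecipitation sequencing (RIP-seq) sequences RNA recovered from a lysate with an antibody. Splenic B cells of wild-type mice, taken as the CD43- fraction, were activated for 72 h with IL-4 (20 ng/mL), an anti-IgM antibody (10 ug/mL) and, as the labels write it, CD40L (5 ug/mL), for which the methods name an anti-CD40 antibody. The 3 groups shared genotype, cells and stimulation. They were the lysate itself (input, 3 libraries), RNA bound to normal rabbit IgG (IgG, 3 libraries) and RNA bound to an antibody against p-UPF1 (p-UPF1, 3 libraries). Per the methods, part of the lysate was kept as input and the rest went to the antibodies. Libraries of different groups may therefore share a lysate. No source says which do, and the main tests treated the libraries as unpaired. The labels give neither strain, age, sex nor number of mice. The methods give an age range and both sexes for the study's mice in general, and a C57BL/6 background for its engineered lines, but do not say which mice gave these libraries. The methods call the points of each graph biological replicates but do not tie these libraries to mice or cultures, so P values measure the spread between these libraries, which may be technical. In such bulk lysates fewer cells of a type and less RNA per cell cannot be told apart.

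An antibody is built from paired heavy and light chains, and the constant region of the heavy chain sets its class. Resting B cells carry IgM and IgD, whose constant genes Ighm and Ighd are read from the same primary transcript. CD40 signals with IL-4 direct switching to IgG1 and IgE, and germline transcripts of Ighg1 and Ighe are made before the switch. Nonsense-mediated mRNA decay (NMD) removes mRNAs with a premature stop, and the helicase UPF1 is phosphorylated on RNAs that undergo it. Immunoglobulin genes are classical NMD substrates, because out-of-frame joining of gene segments often creates a premature stop codon.

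Depth was between 17372510 and 24945286 counts per library. B cell identity was checked with 8 markers, and each had a mean of at least 1 CPM (counts scaled by library size and TMM factors) in all 3 groups. Of the T cell, NK cell and erythroid markers none reached 1 CPM in any group, and among 5 myeloid markers only Adgre1 did. Of 6 plasma cell markers 5 reached 1 CPM in every group and Tnfrsf17 was at 0 in every library. Their summed level was 1053 to 1078 CPM in input, 1091 to 1212 with IgG and 2335 to 2354 with p-UPF1. These markers went both ways, since from input to p-UPF1 the means of Irf4 (502 to 1487 CPM), Slamf7 (288 to 726) and Sdc1 (3.87 to 9.32) were higher and those of Xbp1 (254 to 116) and Prdm1 (16.4 to 9.39) lower. Their part in the results was not tested. Mitochondrially encoded mRNA held 2.47% to 2.53% of input counts, 2.05% to 2.24% of IgG counts and 0.0706% to 0.0778% of p-UPF1 counts. The scaling of p-UPF1 libraries to the others therefore rests on the assumption that the typical nuclear-encoded RNA did not change. Each direction below is relative to that typical RNA.

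The genes lie in 4 places of the mouse genome (build GRCm38, the assembly that mm10 names; RefSeq annotation). The heavy-chain genes sit on the minus strand of chromosome 12, with Ighm at chr12:113418826-113422730, Ighd at chr12:113407535-113416324, Ighg1 at chr12:113326541-113330523 and Ighe at chr12:113269263-113273248. Igkc, the kappa constant gene, is a single exon at chr6:70726435-70726754 on the plus strand. The lambda constant exons Iglc1 and Iglc2 are at chr16:19061752-19062071 and chr16:19198536-19198852, on the minus strand. Jchain, which encodes the small protein that links IgM into pentamers and IgA into dimers, spans 4 exons at chr5:88519809-88527897 on the minus strand. In RefSeq the records of the constant genes hold largely coding sequence, whereas the Jchain record includes its untranslated regions. The Ighg1 record has 1481 bases, beside coding lengths of 971 (secreted form) and 1178 (membrane form) in the GENCODE M21 annotation. What the longer record holds was not examined.

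The heavy-chain records include the exons of the membrane-bound form, so a gene count pools the membrane and the secreted mRNA and any germline transcript. The last coding exon of the membrane form of each member is shown on GRCm38 from RefSeq, 5′ to 3′ on the transcript strand with the stop codon in capitals, because it shows how the classes differ at the end that the membrane form alone carries. The lines are Ighm at chr12:113418826-113418836, Ighd at chr12:113407535-113407543, Ighg1 at chr12:113326541-113326624 and Ighe at chr12:113269260-113269343.
Ighm: aggtgaaaTGA
Ighd: gtgaagTAG
Ighg1: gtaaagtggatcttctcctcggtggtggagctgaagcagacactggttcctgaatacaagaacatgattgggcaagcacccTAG
Ighe: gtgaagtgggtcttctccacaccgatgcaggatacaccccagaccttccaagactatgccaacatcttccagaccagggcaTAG
To the stop codon the stretch is 84 bases long in Ighg1 and Ighe, 11 in Ighm and 9 in Ighd. The RefSeq record of Ighe ends before its stop codon, so the last 3 bases of that line were read from the genome.

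The lambda genes are shown because reads of near-identical copies can be lost or split in counting. Iglc2 and Iglc3 differ at 11 of 317 bases, and 7 of these fall in the 120 bases printed, with the differing bases in capitals (Iglc2 at chr16:19198733-19198852 and Iglc3 at chr16:19065562-19065681, both minus strand).
Iglc2: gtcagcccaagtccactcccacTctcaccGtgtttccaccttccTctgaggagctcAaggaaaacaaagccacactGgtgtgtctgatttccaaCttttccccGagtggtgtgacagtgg
Iglc3: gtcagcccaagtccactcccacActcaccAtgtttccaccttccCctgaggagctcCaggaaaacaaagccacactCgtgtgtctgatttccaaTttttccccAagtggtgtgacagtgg
Of the 50-base windows of Iglc2, 15.3% also occur in Iglc3, so the Iglc2 count is uncertain. Ighg1 shares 0.8% of its windows with Ighg2b, and the other 6 members share none with another immunoglobulin constant gene. Other genes were not searched. For contrast with the lambda pair, the end of the kappa exon is shown with the stop codon in capitals, whose 3 bases follow the RefSeq record in the genome (chr6:70726638-70726757, plus strand).
Igkc: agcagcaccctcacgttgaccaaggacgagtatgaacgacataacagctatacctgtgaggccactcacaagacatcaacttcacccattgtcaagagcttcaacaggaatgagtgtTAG

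Among the heavy chains, Ighg1 was the member most enriched with p-UPF1. Its level was 821, 836 and 826 CPM in the input libraries, 708, 688 and 692 CPM with IgG, and 1827, 1828 and 1832 CPM with p-UPF1. Every p-UPF1 library lay above every other library, and the IgG libraries lay below input. The p-UPF1 level was 2.63-fold that with IgG (log2 fold change 1.39, SE 0.03) and 2.21-fold that of input (log2 fold change 1.14, SE 0.03). The adjusted P values were 6.11e-16 and 4.90e-15 (edgeR quasi-likelihood test, Benjamini-Hochberg over all tested genes). Of all genes tested, 84.8% had a lower log2 fold change over IgG and 80.4% a lower one over input.

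Ighm, the constant gene of the mu chain, behaved differently. It was the most abundant member in counts, at 4370.05, 4376 and 4382 CPM in input. The level was 2542, 2719 and 2644 CPM with IgG and 2437, 2616 and 2472 CPM with p-UPF1. Both precipitates lay below every input library and overlapped one another. With p-UPF1 it was lower than input by a log2 fold change of -0.80 (SE 0.04, edgeR quasi-likelihood, Benjamini-Hochberg adjusted P 2.47e-12). The difference from IgG, -0.07 (SE 0.04), did not pass the same test (adjusted P 0.0832). That last call stood under 16 of 22 alternatives other than mitochondrial scaling. Leaving out IgG library A or p-UPF1 library B gave -0.10 in each case with adjusted P 0.0106 and 0.0287, and scaling by library size alone gave -0.23 with adjusted P 7.09e-06. With upper-quartile factors it was -0.21, and with an input library as TMM reference -0.15. A block on the letter in the column names also brought it past the threshold.

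Ighd, the delta constant gene, was at 16.3, 13.0 and 13.2 CPM in input, 15.3, 14.95 and 12.8 CPM with IgG, and 20.5, 17.6 and 18.1 CPM with p-UPF1. The p-UPF1 libraries lay above all others, while input and IgG overlapped. Relative to IgG the log2 fold change was 0.39 (SE 0.11) and relative to input 0.40 (SE 0.11), with adjusted P 0.00317 and 0.00231 (edgeR quasi-likelihood, Benjamini-Hochberg). Under scaling by library size alone the change over IgG was 0.23 (adjusted P 0.0683), a setting that moved the median gene by -0.16.

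Ighe, the epsilon constant gene, was at 25.8, 27.1 and 28.2 CPM in input, 23.6, 19.7 and 17.5 CPM with IgG, and 27.1, 27.7 and 29.3 CPM with p-UPF1. The IgG libraries lay below both other groups, and p-UPF1 overlapped input. Ighe was higher with p-UPF1 than with IgG (log2 fold change 0.47, SE 0.09), and its difference from input was 0.05 (SE 0.09). The adjusted P values were 0.000167 and 0.567 (edgeR quasi-likelihood, Benjamini-Hochberg). With no filter on low counts the difference from input was 0.19 (adjusted P 0.0389), and with upper-quartile factors it was -0.01 (adjusted P 0.902).

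**Figure D1:**
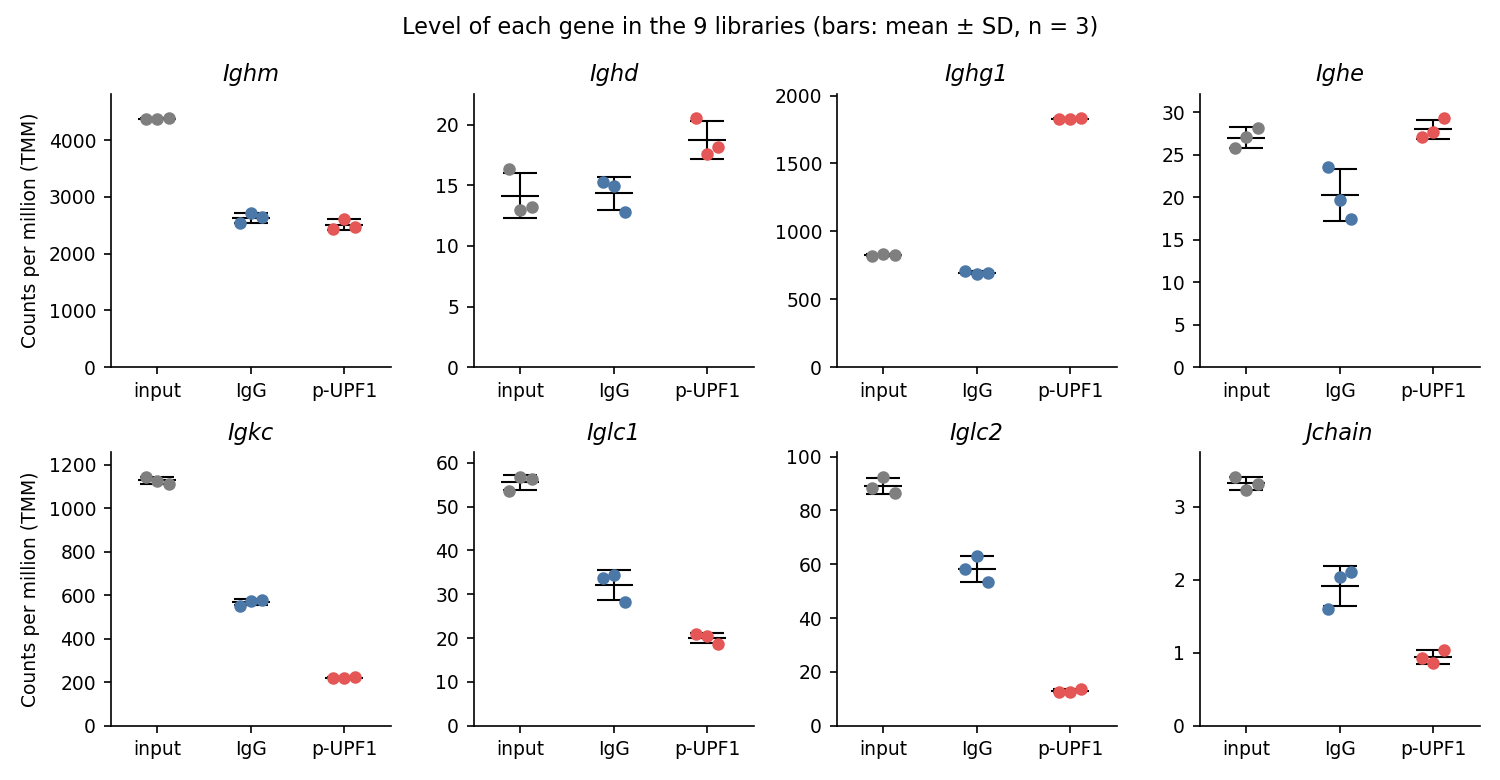
Level of each of the 8 genes in the 9 libraries, in TMM-scaled CPM on a linear axis from 0 that differs between genes. Points are libraries and black bars are the mean ± SD of 3 libraries. On this TMM scale Ighg1 was higher with p-UPF1 than in either other group, whereas the light chains and Jchain descended from input to IgG to p-UPF1.

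Relative to the typical RNA the light chains were depleted from both precipitates, and more so with p-UPF1, whereas with mitochondrial mRNA set equal their p-UPF1 log2 fold changes were 2.26 to 4.01, still under those of the median gene. Igkc was at 1145, 1128 and 1114 CPM in input, 552, 575 and 578 CPM with IgG, and 218, 222 and 225 CPM with p-UPF1. No library of one group overlapped another group. Relative to input the log2 fold change was -2.35 (SE 0.04) and relative to IgG -1.36 (SE 0.04), with adjusted P 5.83e-18 and 2.93e-15 (edgeR quasi-likelihood, Benjamini-Hochberg). The input level was 5.1 times the p-UPF1 level.

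Iglc2 showed the same order, at 88.2, 92.4 and 86.5 CPM in input, 58.3, 63.2 and 53.5 CPM with IgG, and 12.6, 12.7 and 13.6 CPM with p-UPF1. Among the 8 genes it had the lowest log2 fold change in both p-UPF1 contrasts, at -2.17 over IgG (SE 0.07) and -2.78 over input (SE 0.07), with adjusted P 3.65e-14 and 9.30e-16 (edgeR quasi-likelihood, Benjamini-Hochberg). Only 5.13% and 4.04% of tested genes lay lower. The near-identical Iglc3 was at 50.8 CPM in input and 6.76 CPM with p-UPF1, a log2 fold change of -2.91, so both copies were depleted.

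Iglc1 was at 53.6, 56.8 and 56.4 CPM in input, 33.7, 34.3 and 28.2 CPM with IgG, and 20.9, 20.4 and 18.6 CPM with p-UPF1. The groups did not overlap, but the differences were smaller than those of Iglc2. Relative to IgG the log2 fold change was -0.68 (SE 0.08) and relative to input -1.47 (SE 0.07), with adjusted P 4.97e-07 and 9.66e-12 (edgeR quasi-likelihood, Benjamini-Hochberg). The coding exons of Iglc1 and Iglc2 are 74.7% identical, and Iglc1 shared no 50-base window with another immunoglobulin constant gene.

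Jchain was the rarest member, with 64 to 84 counts per input library, 30 to 41 with IgG and 19 to 23 with p-UPF1.
Its level was 3.41, 3.23 and 3.31 CPM in input, 1.59, 2.04 and 2.10 CPM with IgG, and 0.927, 0.858 and 1.04 CPM with p-UPF1. The groups did not overlap. Relative to IgG the log2 fold change was -1.02 (SE 0.24) and relative to input -1.81 (SE 0.23), with adjusted P 0.00112 and 1.45e-06 (edgeR quasi-likelihood, Benjamini-Hochberg). These were the widest errors of the 8 genes. Jchain is switched on as B cells become antibody-secreting cells.

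Against IgG, 3 of the 8 genes were higher with p-UPF1 (37.5%) and 4 were lower (50.0%), where 40.4% and 42.2% of all tested genes were called higher and lower. Against input, 2 of 8 were higher and 5 of 8 lower (62.5%), beside 40.8% and 42.6% of all genes. With so many genes called in each direction, the number of members called is close to the background over IgG. The median log2 fold change of the 8 genes was -0.38 relative to IgG and -1.14 relative to input, beside -0.03 for all genes in both contrasts. The 2 contrasts share the p-UPF1 libraries and are not independent.

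The methods define p-UPF1-bound RNAs by joint limits, with log2 fold changes of 1 or more relative to IgG and 2 or more relative to input, each at adjusted P under 0.05. No member met them in the edgeR quasi-likelihood test, where 6.25% of tested genes did. The count was also 0 at an unadjusted P under 0.05, and 0 with DESeq2 or limma-voom. Ighg1 alone passed the limit over IgG, and its 1.14 over input was under the limit there. When mitochondrial mRNA was instead set equal in all libraries, the median gene moved to 4.66 over IgG and 5.00 over input and all 8 members passed, so the criterion then no longer parted them from other RNAs.

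**Figure D2:**
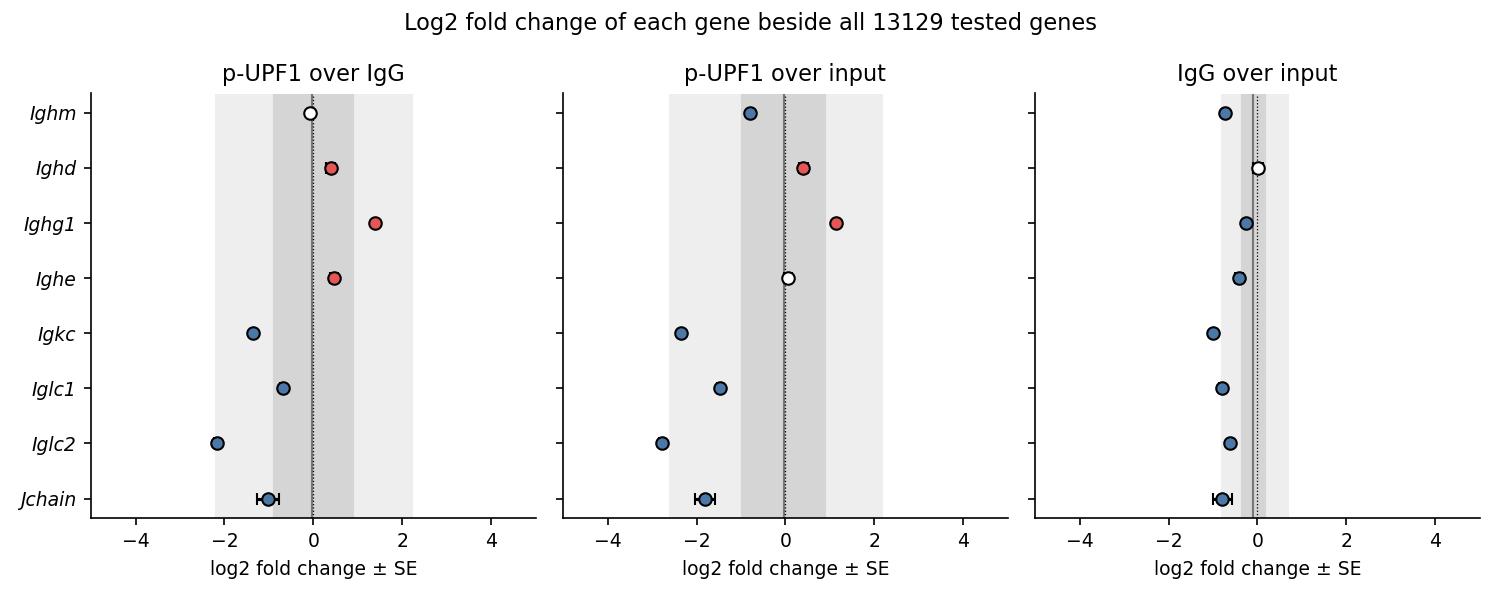
Log2 fold change ± SE of each of the 8 genes in the 3 contrasts. Red points were called higher, blue lower and white neither, at adjusted P under 0.05. The dark band holds the 25th to 75th percentile of the 13129 tested genes, the light band the 5th to 95th percentile, and the grey line is their median. Ighg1 lay at 1.39 and 1.14 in the p-UPF1 contrasts and Iglc2 at -2.17 and -2.78.

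The IgG libraries give the background of the precipitation. Relative to input, 7 of 8 members were lower with IgG (87.5%), where 34.7% of all genes were, and none was higher, where 18.2% were. With mitochondrial mRNA set equal, 4 were lower and 1, Ighd, was higher. The count of 0 higher was the same at an unadjusted P under 0.05 and with DESeq2 or limma-voom. The log2 fold changes of those that fell were -0.73 for Ighm, -0.25 for Ighg1, -0.41 for Ighe, -0.99 for Igkc, -0.79 for Iglc1, -0.61 for Iglc2 and -0.79 for Jchain. Ighd was at 0.01 (SE 0.11, edgeR quasi-likelihood, Benjamini-Hochberg adjusted P 0.939). The members' median was -0.67 against -0.10 for all genes. B cell markers also differed between groups, with a summed level of 9288 to 9439 CPM in input, 5390 to 5437 with IgG and 3509 to 3577 with p-UPF1, of which Cd74 held a mean of 5977, 2722 and 920 CPM. Their part in the members' results was not tested.

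Comparing the members with each other inside a library removes the scaling between libraries. Ighm held 83.2% ± 0.09 of the heavy-chain constant counts in input, 77.96% ± 0.88 with IgG and 56.5% ± 0.93 with p-UPF1 (SD, n = 3). The share of Ighg1 was 15.7% ± 0.12, 20.6% ± 0.78 and 41.2% ± 0.87. No library of one group overlapped another in either share. Ighg3 was a minor class at 0.166% in input and 1.13% with p-UPF1.

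As counts, Ighg1 over Ighm was 0.189 ± 0.002 in input, 0.265 ± 0.013 with IgG and 0.730 ± 0.027 with p-UPF1 (SD, n = 3). On the log2 scale with a pseudocount of 0.5, the ratio of Ighg1 to Ighm was 1.95 higher with p-UPF1 than in input and 1.46 higher than with IgG. For Ighd the ratio to Ighm was 1.21 and 0.46 higher, and for Ighe 0.86 and 0.55 higher. Each light chain and Jchain had a lower ratio to Ighm with p-UPF1, with differences of -2.09 to -0.61 from IgG and -1.97 to -0.67 from input. In all 14 of these p-UPF1 comparisons the groups did not overlap, which gives an exact permutation P of 0.1, the smallest that 3 against 3 libraries allow (two-sided; 0.117 after adjustment over 21 comparisons).

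Heavy-chain constant counts were 3.97 ± 0.06 times the light-chain constant counts in input, 4.92 ± 0.02 times with IgG and 17.001 ± 0.386 times with p-UPF1 (SD, n = 3). The heavy and light chains parted most in the p-UPF1 libraries. Within the light chains the kappa share was 85.2% ± 0.20 in input, 82.8% ± 1.07 with IgG and 84.8% ± 0.60 with p-UPF1. The lambda genes changed order, since Iglc1 over Iglc2 was 0.624 ± 0.024 in input, 0.549 ± 0.026 with IgG and 1.54 ± 0.15 with p-UPF1.

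**Figure D3:**
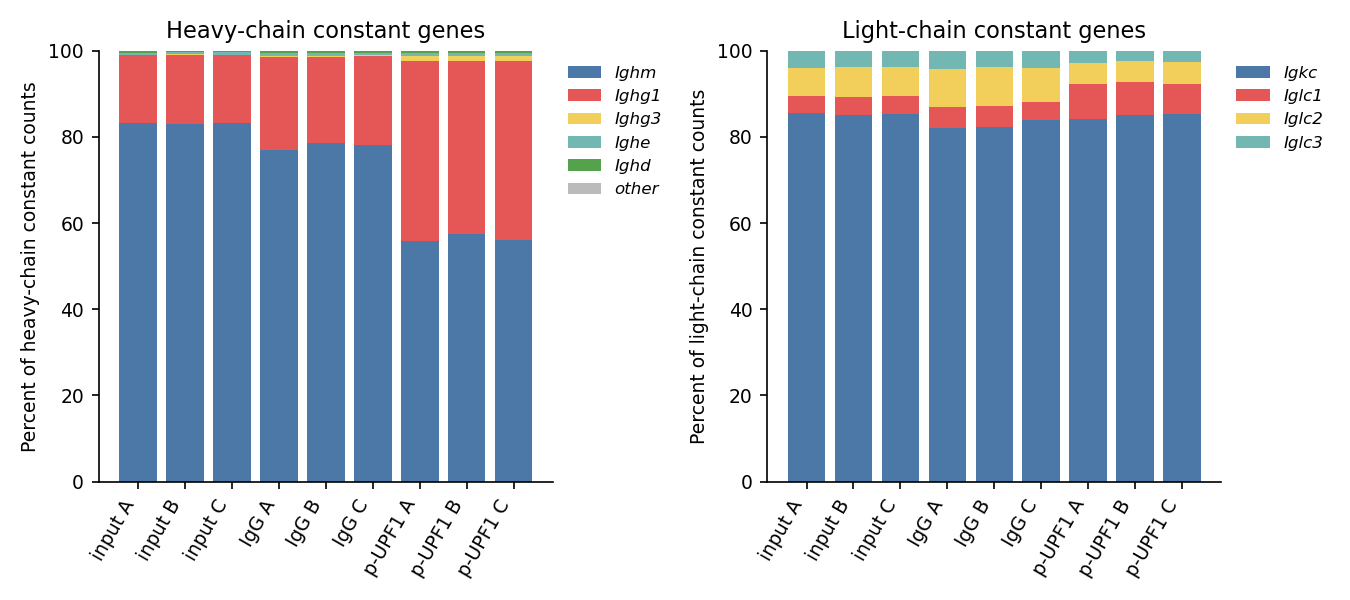
Share of constant genes in the counts of all heavy-chain (left) and all light-chain (right) constant genes, one bar per library, in percent. The rare heavy-chain genes Ighg2b, Ighg2c and Igha are pooled as other. The Ighg1 share was 15.7% in input and 41.2% with p-UPF1, while the Igkc share stayed between 82.0% and 85.5% in all 9 libraries.

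Levels of different genes were compared per kilobase of merged RefSeq exons. In input the order was Igkc (3528 CPM per kb), Ighm (2935), Ighg1 (559), Iglc2 (281), Iglc1 (174), Ighe (18.2), Ighd (14.0) and Jchain (1.58). With IgG, Igkc (1776 ± 46) and Ighm (1767 ± 60) were within their spread of each other, as were Ighd (14.2 ± 1.4) and Ighe (13.7 ± 2.1; SD, n = 3). With p-UPF1 the order began with Ighm (1682), Ighg1 (1235) and Igkc (692), Iglc1 (62.4) stood above Iglc2 (41.0), and Ighe (18.9 ± 0.76) and Ighd (18.6 ± 1.5) were within their spread. The first place depends on the gene model, because with the longer GENCODE exons Ighm (2320 CPM per kb) stood above Igkc (2122) in input. So do the ties, since with GENCODE exons and IgG Ighm (1397) stood above Igkc (1068), and Ighe stood above Ighd both with p-UPF1 (17.7 and 9.87 CPM per kb) and with IgG (12.8 and 7.55).

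All 8 genes together held 0.642% ± 0.004 of counts in input, 0.429% ± 0.005 with IgG and 0.442% ± 0.008 with p-UPF1 (SD, n = 3). The share with p-UPF1 exceeded that with IgG in every library. Within it, Ighg1 held 0.0742% of counts with IgG and 0.174% with p-UPF1, and Igkc 0.0606% and 0.0211%. The variable, diversity, joining and other constant genes held 0.143% in input, 0.0737% with IgG and 0.0315% with p-UPF1. A read that runs from a joining segment into a constant exon may be left unassigned by default counting, and the setting is not given in the sources used here.

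A property that the choice of members did not use is the length of the region that follows the coding sequence. It differs between the heavy-chain forms, and in GENCODE M21 its longest annotated length, stop codon included, was 1304 bases for Ighg1, 934 for Ighd, 804 for Jchain, 271 for Ighm, 212 for Igkc, 143 for Iglc2, 137 for Iglc1 and 102 for Ighe. The secreted form of Ighg1 has 105 bases there and that of Ighd 29, so the long values belong to the membrane forms. The value of Ighe belongs to its secreted form, because its membrane form is annotated with only 3 bases there, the stop codon alone. Other genes were tied to GENCODE transcripts by Gene number and the members by symbol. Over the 11875 tested genes with an annotated length (90.5%), Spearman's rho with the log2 fold change over input was 0.343. This is a description across genes that share the same libraries. Genes under 150 bases had a median of -1.42 over input and genes of 150 to 299 bases one of -1.22, against 0.29 for 1000 to 1999 bases and 0.41 for 2000 bases or more.

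Ighg1 (1.14, SE 0.03) lay at the upper quartile of its length class (1.12), within its SE. Ighd (0.40) and Ighm (-0.80) lay between the median and the upper quartile of theirs, and Iglc1 (-1.47) lay near the median of its own. Igkc (-2.35) and Iglc2 (-2.78) lay below the lower quartile of theirs, as did Jchain (-1.81) in the class of 300 to 999 bases, whose median was -0.39. Ighe (0.05) lay above the upper quartile of the shortest class. That class rests on its secreted form, since nothing past the stop codon is annotated for its membrane form. The counts do not say which form was precipitated, and the part of transcript length in the results was not tested. The length classes were chosen after the fold changes were seen.

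**Figure D4:**
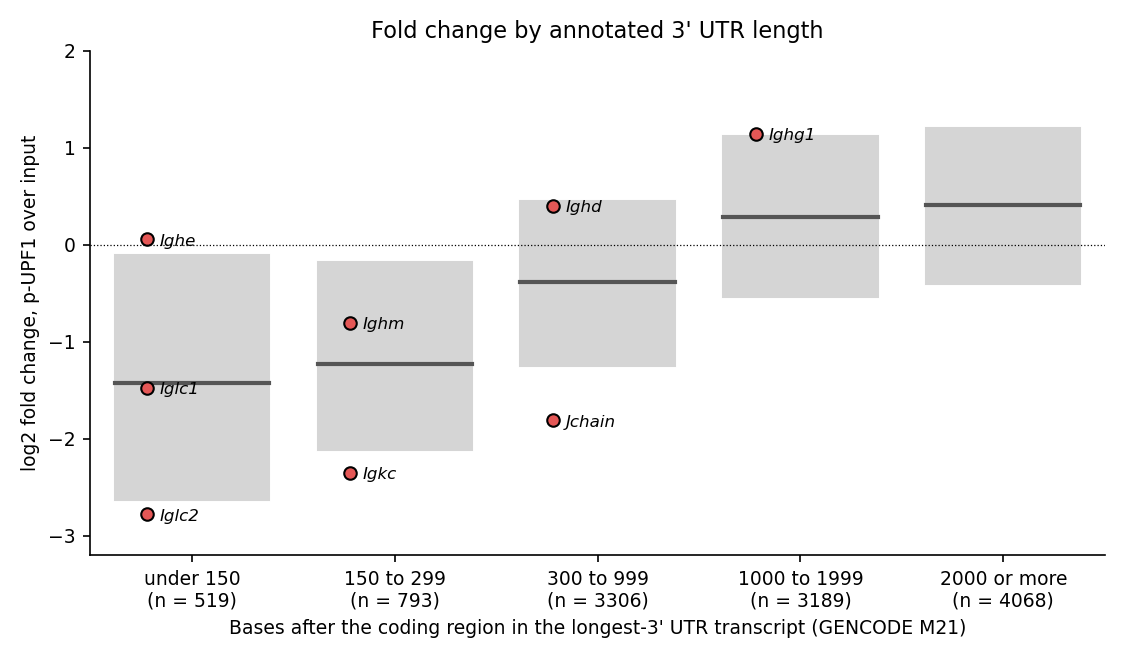
Log2 fold change of p-UPF1 over input against the annotated number of bases after the coding region, in 5 length classes. Grey boxes run from the lower to the upper quartile of all tested genes in a class with the median as a line. Red points are the 8 genes, placed by the longest such region among their annotated transcripts. The class medians went from -1.42 to 0.41, Ighg1 lay at 1.14 and Jchain at -1.81.

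Of 7 other constant genes listed, 5 were in the table and tested. Ighg3, the constant gene of another IgG class, was at 8.74 CPM in input, 8.98 with IgG and 50.3 with p-UPF1, a log2 fold change of 2.49 over IgG (SE 0.08) and 2.53 over input (SE 0.08), past both limits for p-UPF1-bound RNA. Ighg2b was higher with p-UPF1 (1.05 over IgG and 0.42 over input), and it is 79.0% identical to Ighg1 over the aligned bases of their RefSeq exons. Iglc3 was lower, and Ighg2c and Igha were under 2 CPM and not called over IgG, although Ighg2c was lower than input (-1.19). Among the joining segments, all 12 in the table, 10 were tested, and 8 were lower with p-UPF1 than with IgG and none higher, with a median of -1.64, where 42.2% and 40.4% of all genes were lower and higher. These short segments were at most 5.25 CPM on average in any group.

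The partners of immunoglobulin in the B cell receptor, Cd79a and Cd79b, were lower with p-UPF1 than input by log2 fold changes of -3.04 and -1.08. The surrogate light chain genes Igll1, Vpreb1 and Vpreb2 were below the filter, and Vpreb3 was at -0.38 over input. Of the 18 genes that fold and assemble immunoglobulin in the endoplasmic reticulum, 3 were higher and 15 lower over input, with a median of -1.26, beside the 40.8% and 42.6% of all genes. Those higher were the disulfide isomerases Txndc5 (1.19) and P4hb (0.11) and the chaperone Hyou1 (0.43). Hspa5, the chaperone BiP that holds unpaired heavy chains, was at -1.27, and Mzb1, a cofactor of IgM assembly, was at -1.66.

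Of 7 genes of immunoglobulin RNA processing and the switch to secretion, 1 was higher over input and 5 were lower, with a median of -0.75, against the same background of 40.8% and 42.6%. Ell2, the elongation factor that favours the secreted form, was at -0.75, and the transcription factor Irf4 at 1.57. Of 6 class-switching genes, 4 were higher and 2 lower over input, with a median of 0.23, again beside 40.8% and 42.6% of all genes. The uracil glycosylase gene Ung (0.88) and the transcription factor gene Batf (0.40) were among those higher, while the repair genes Apex1 (-2.44) and Msh6 (-0.93) were lower. Among receptors that bind immunoglobulin, Fcer2a, the low-affinity IgE receptor induced by IL-4, was higher (0.98), and Fcmr (-2.20) and Fcgr2b (-1.88) were lower.

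**Figure D5:**
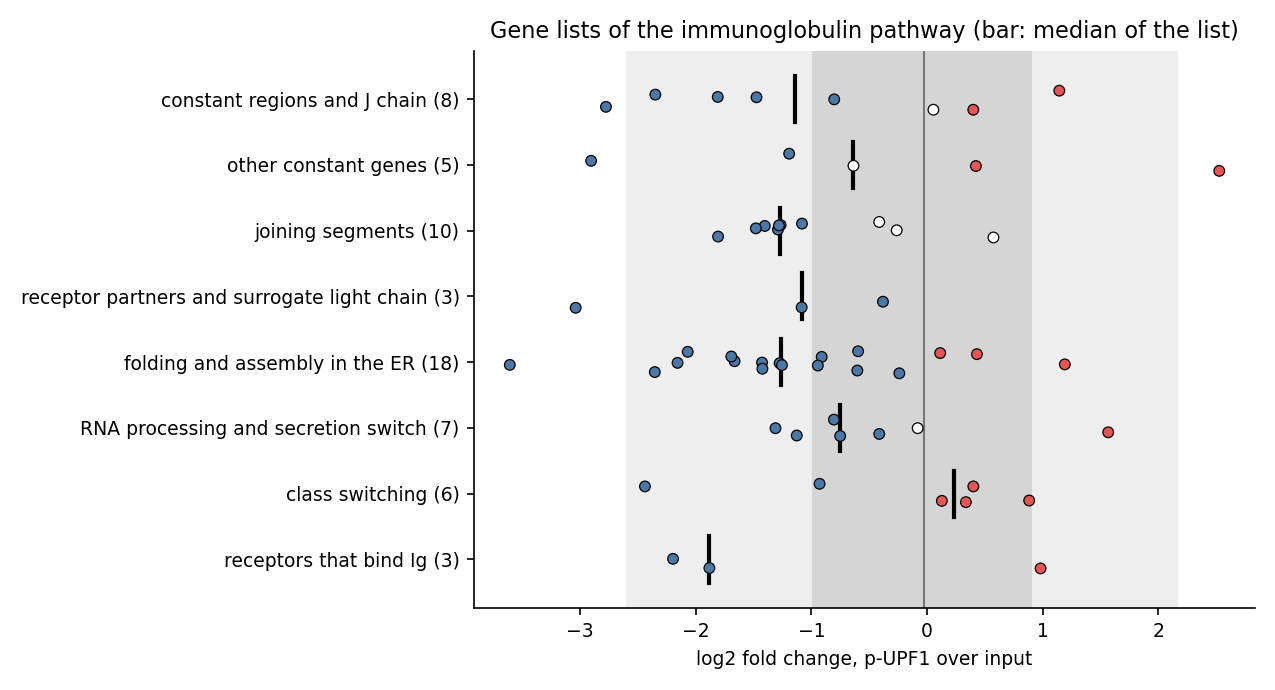
Log2 fold change of p-UPF1 over input for the 8 genes and for 7 lists of related genes, one point per tested gene and the number tested in brackets. Red points were called higher, blue lower and white neither. Thick bars are list medians, and the bands are those of all 13129 tested genes (25th to 75th and 5th to 95th percentile). The median of the 8 genes was -1.14, that of the class-switching genes 0.23 and that of all genes -0.03.

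The genes most like each member across the 9 libraries were found by the root mean square difference of centred log2 CPM, among 8992 genes of at least 10 CPM. Terf2 was nearest to Ighg1 (0.04) and Tapbp to Ighm (0.05). Sclt1 was nearest to Ighd (0.08) and Zfp395 to Ighe (0.07). For the light chains the nearest were Tgfb1 for Igkc (0.06), Kdelr2 for Iglc1 (0.05) and Fkbp3 for Iglc2 (0.05). Jchain, under 10 CPM, was left out.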

How the data were processed

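RIP-seq counts of 9 libraries were used. The deposited values are raw counts per NCBI Gene number. Per the labels, a directional kit was used, and the submitters' processing notes name cutadapt, HISAT2 and featureCounts with mm10. Versions, gene models, strand use and treatment of multimapping reads for these libraries are not given in the sources used here. Without molecular identifiers, counting error understates the true error. Column names gave the group but no replicate number of the labels.

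Gene numbers were matched to RefSeq GRCm38.p6 (25201 of 27179). Genes passing filterByExpr (minimum count 10, total 15) were scaled by TMM and fitted with edgeR 4.0.16 (R 4.3.3) over the 3 groups, with quasi-likelihood tests and Benjamini-Hochberg adjustment over 13129 genes. The prior count was 0.125. The script was tested on simulated data. Alternatives used DESeq2 1.42.0, limma 3.58.1, other scalings, filters, left-out libraries and a block on the column letter.

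Named genes were the members, 7 lists of related genes, cell type markers and, for members of at least 10 CPM, the 3 nearest genes. Items of the class-switching list are in part not reported here and were left out of its counts. Members and lists were chosen with earlier results of these data known.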

Additional observations from a re-analysis of the deposited data

How the results depend on the processing

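Of 528 member fold changes under 22 alternatives other than mitochondrial scaling, 515 kept their direction and side of the threshold. Those that reversed were Ighe over input with upper-quartile factors (-0.012) and Ighd in IgG over input without single libraries, with a range of -0.055 to 0.12 over all single omissions. Neither was called. Scalings other than the mitochondrial one moved the median gene by -0.16 to 0.13.

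With mitochondrially encoded mRNA set equal between libraries, 8 members were higher and 0 lower over IgG, 8 higher and 0 lower over input, 8 met the combined criterion, and IgG over input had 1 higher and 4 lower. Over IgG the reversed log2 fold changes were 4.62 for Ighm, 3.33 for Igkc, 4.01 for Iglc1, 2.53 for Iglc2 and 3.66 for Jchain. Over input they were 4.24 for Ighm, 2.69 for Igkc, 3.56 for Iglc1, 2.26 for Iglc2 and 3.22 for Jchain, and for IgG over input 0.095 for Ighg1. The median gene moved to 4.66, 5.00 and 0.24, and relative to it 3, 3 and 1 of the 8 members lay above. This setting rescales all genes of a library together.

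Of 210 ratios to Ighm recomputed, 2 reversed when libraries were left out, both for IgG over input, with ranges of -0.13 to 0.036 for Jchain and -0.13 to 0.027 for Iglc1. The members' share of counts kept within its spread with genes past the filter as denominator. The columns carry letters shared between groups, which match no replicate number of the labels. Deviations of same-lettered libraries from their group means correlated at -0.0051 to 0.054 over all tested genes, 0 of 9 pairs over 0.1. Over genes of at least 10 CPM the range was 0.067 to 0.20, with 8 of 9 over 0.1. All 9 lay above those of either library with the other letters, a hint from the data that the letters mark pairs. The methods describe input and precipitates from a shared lysate, but no source ties a letter to a lysate. With the letter as a replicate block, an alternative chosen after seeing the data, calls over IgG were 5328 higher and 5547 lower in place of 5299 and 5546. The block changed 1 member call, that of Ighm over IgG (-0.07, edgeR quasi-likelihood, Benjamini-Hochberg adjusted P 0.0415), so 5 members were lower there. Depth limits Jchain most, at 19 to 23 counts per p-UPF1 library.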
